A study of Mus musculus with 40 samples.

Results

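The genes described here are the adenosine receptors and the main enzymes that make or remove adenosine: the receptors Adora1, Adora2a, Adora2b and Adora3, the enzymes outside the cell Entpd1 and Nt5e, and the enzymes Ada and Adk. They were chosen by gene symbol, and Adora1 led to the choice because its level was high on the week 12 array of the low fat diet. Together they are 8 of the 29411 gene symbols on the array and are measured by 14 of its 40628 probes. Adora1 has 3 probes, Adora2a, Adora3, Entpd1 and Nt5e have 2 each, and Adora2b, Ada and Adk have 1 each.

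Adenosine outside cells is made when ATP and ADP are broken down to AMP and AMP is broken down to adenosine. It acts on G protein-coupled receptors, some of which lower cyclic AMP (Adora1, Adora3) and some of which raise it (Adora2a, Adora2b). In fat tissue Adora1 is known as the adipocyte receptor through which adenosine holds back the breakdown of stored fat, and Adora2a and Adora2b are known from macrophages and other immune cells.

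RNA came from subcutaneous stromal vascular cells (SVCs) of C57BL/6J mice, weaned at 3 to 4 weeks of age, and was measured on 1-colour arrays. The LFC mice ate a diet with 10% of calories from fat and the HFC mice a diet with 60% of calories from fat and added sucrose. The HF5, HF20 and HF75 mice ate the HFC diet with 5, 20 or 75 µg of the plant formulation Kal-1. LFC and HFC have 11 arrays each, at days 1, 6, 10 and 14 and weeks 0, 3, 6, 9, 12, 15 and 18. HF5 has 6 arrays, at weeks 3 to 18, and HF20 and HF75 have 5 arrays each, at weeks 3 to 15. The paper counts weeks from day 14 and takes day 14 and week 0 as the same time, at which LFC and HFC thus have 2 arrays each. They are kept here under their separate labels. Another 2 arrays of week 18 have labels that disagree on the dose and belong to no group. Tissue was frozen before RNA extraction. The series text names 3 biological replicates and the paper 3 runs of the experiment, but the deposited files hold 1 array for each diet and time label, and the sources do not say how many mice each array stands for. A p-value here therefore measures only the spread between these arrays, and the number of arrays limits the precision.

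Levels are log2 signals from which the array's own 75th percentile was taken away, so 0 is that percentile and each unit is a doubling. Where a gene has several probes, the brightest on average stands for it unless another is named. A spot that the scanner software did not call well above background was set to the lowest level that was. Such a set level is called a bound below and is not a measured level. On LFC week 3, where it was -0.03 and 17.2% of probes were well above background, some of these spots had themselves been above it. A level also depends on the probe, so levels of different genes are not read as amounts, and the brightest gene of a marker list is only the one whose probe gave the highest signal. No member probe was saturated on any of the 38 labelled arrays.

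Some arrays stood apart from the rest. On LFC week 3 only 17.2% of probes were well above background, against a median of 69.6% over the 38 arrays, and its median Spearman correlation with the other arrays was 0.443. LFC day 14 had 9104 outlier spots, against a median of 47.5, and a median correlation of 0.458. On the other 36 arrays that correlation lay between 0.832 and 0.941. LFC week 18 was the lowest of these 36, and only 1 of 6 fibroblast markers and 5 of 10 adipocyte markers were well above background on it. The HFC minus LFC values are therefore also given without these arrays. The Kal-1 comparisons use none of them, except where all 38 arrays enter 1 fit.

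The labelled material was checked against cell type markers, each list summarised on an array by the mean level of its genes. The macrophage list (8 genes, C1qa brightest on 21 arrays) had a median of 0.65 and ran from -1.54 on HFC day 1 to 2.27 on HFC week 6. Emr1, which encodes the macrophage surface protein F4/80, was well above background on 37 of 38 arrays. Macrophage transcripts were thus present, but so were those of other cell types. The fibroblast list (6 genes, Dcn brightest on 29 arrays) had a median of 4.18, from -6.32 on LFC week 18 to 5.01 on LFC day 10. The adipocyte list (10 genes, Fabp4 brightest on 24 arrays) had a median of 2.35, from -4.33 on LFC week 18 to 6.19 on LFC day 6. Adipocyte transcripts thus varied widely between arrays of a fraction named for stromal vascular cells.

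The remaining marker lists also differed between arrays. The endothelial list had a median of 2.16, from -3.21 on LFC week 18 to 3.65 on HFC day 10. The T cell list had a median of -2.17, from -4.69 on LFC week 12 to 0.86 on HF5 week 3, and the B cell list a median of -1.59, from -4.68 on HF5 week 9 to 2.57 on HFC week 3. Lymphocyte transcripts thus had wide ranges as well. The mast cell list had a median of -1.74, and its highest mean, -0.03 on LFC week 3, is a bound from that dim array. The skeletal muscle list had a median of 1.38, from -4.80 on LFC week 18 to 6.51 on LFC week 6, and the lymph node list, with 4 of 5 genes on the array, a median of -2.37, from -5.83 on HF75 week 6 to 2.18 on LFC week 3. The immediate-early list (Fos, Jun and related genes that respond to tissue handling; Junb brightest on 36 arrays) had a median of 4.64, from -1.08 on HF20 week 12 to 5.38 on LFC week 6.

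For each receptor a probe with an open reading frame over its whole length is shown, because receptors of a family share sequence. For Adora2b it is the probe behind the levels below, and for Adora1, Adora2a and Adora3 it is one of the other probes of the gene.
Adora1: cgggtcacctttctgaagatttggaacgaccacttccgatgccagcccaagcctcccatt
Adora2a: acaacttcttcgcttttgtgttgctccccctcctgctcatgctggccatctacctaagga
Adora2b: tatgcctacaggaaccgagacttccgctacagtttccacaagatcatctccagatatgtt
Adora3: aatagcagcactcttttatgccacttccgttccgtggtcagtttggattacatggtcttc

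Laid side by side without gaps, the probes shown for Adora2a and Adora3 have the same base at 22 of 60 positions, the most of any pair, and those of Adora1 and Adora2b at 14, as do those of Adora1 and Adora3. The probes were not aligned, so these counts do not show whether a probe also binds RNA of another receptor. The probes behind the Adora1, Adora2a and Adora3 levels were not compared. By accession, 13 of the 14 member probes have the same symbol in the RefSeq table of assembly GRCm38.p6. The exception is the brighter Adora3 probe, which is not shown but gives the Adora3 levels below. Its accession stands under Tmigd3, a gene that overlaps Adora3.

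Adora1 was high on some arrays of 4 of the diets. On the LFC arrays its level ran from -3.93 at week 18 over a median of 0.13 to 3.82 at day 6, with no value at day 14, where the spot was an outlier. On the HFC arrays it ran from -2.63 at week 15 over a median of -1.54 to 2.96 at day 6. At week 12, the time that drew attention to the gene, the level was 3.67 on LFC and -1.75 on HFC. The LFC array was thus the higher, but the ranges of these diets overlapped over most of their length.

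The week 12 arrays of the Kal-1 diets fell on both sides. Adora1 stood at 3.70 on HF20, at -1.91 on HF5 and at -2.51 on HF75. HF20 thus lay beside LFC, and HF5 and HF75 lay beside HFC. These week 12 levels are a description, since the LFC array among them was used in choosing the gene.

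The HF20 arrays had Adora1 at -2.10 in week 3, 1.85 in week 6, 2.94 in week 9, 3.70 in week 12 and 3.30 in week 15. The HF75 arrays had it at -2.61, 0.25, -1.51, -2.51 and -2.12 in the same weeks. The HF5 arrays ran from -3.50 at week 3 over a median of -2.14 to 1.84 at week 9. From week 6 on each HF20 array was above every HF75 array, and week 3 was low on both diets.

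The order of the 37 arrays with a value has its widest gap, 1.36, between 1.84 on HF5 week 9 and 0.48 on LFC day 10. Above it stand 11 arrays, which are LFC day 6, week 9 and week 12, HFC day 1, day 6 and week 9, HF20 weeks 6, 9, 12 and 15, and HF5 week 9. No HF75 array is among them. Week 9 is high on 4 of the 5 diets. These 4 arrays were scanned on the same day and the HF75 array of week 9 on another, so dose and scan day cannot be told apart there. By diet, the mean was 0.07 ± 2.72 (SD, n = 10) on LFC, -0.60 ± 2.02 (SD, n = 11) on HFC, -1.41 ± 1.94 (SD, n = 6) on HF5, 1.94 ± 2.36 (SD, n = 5) on HF20 and -1.70 ± 1.17 (SD, n = 5) on HF75. Neighbours in the order of these means lie within their spread of each other.

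**Figure D1:**
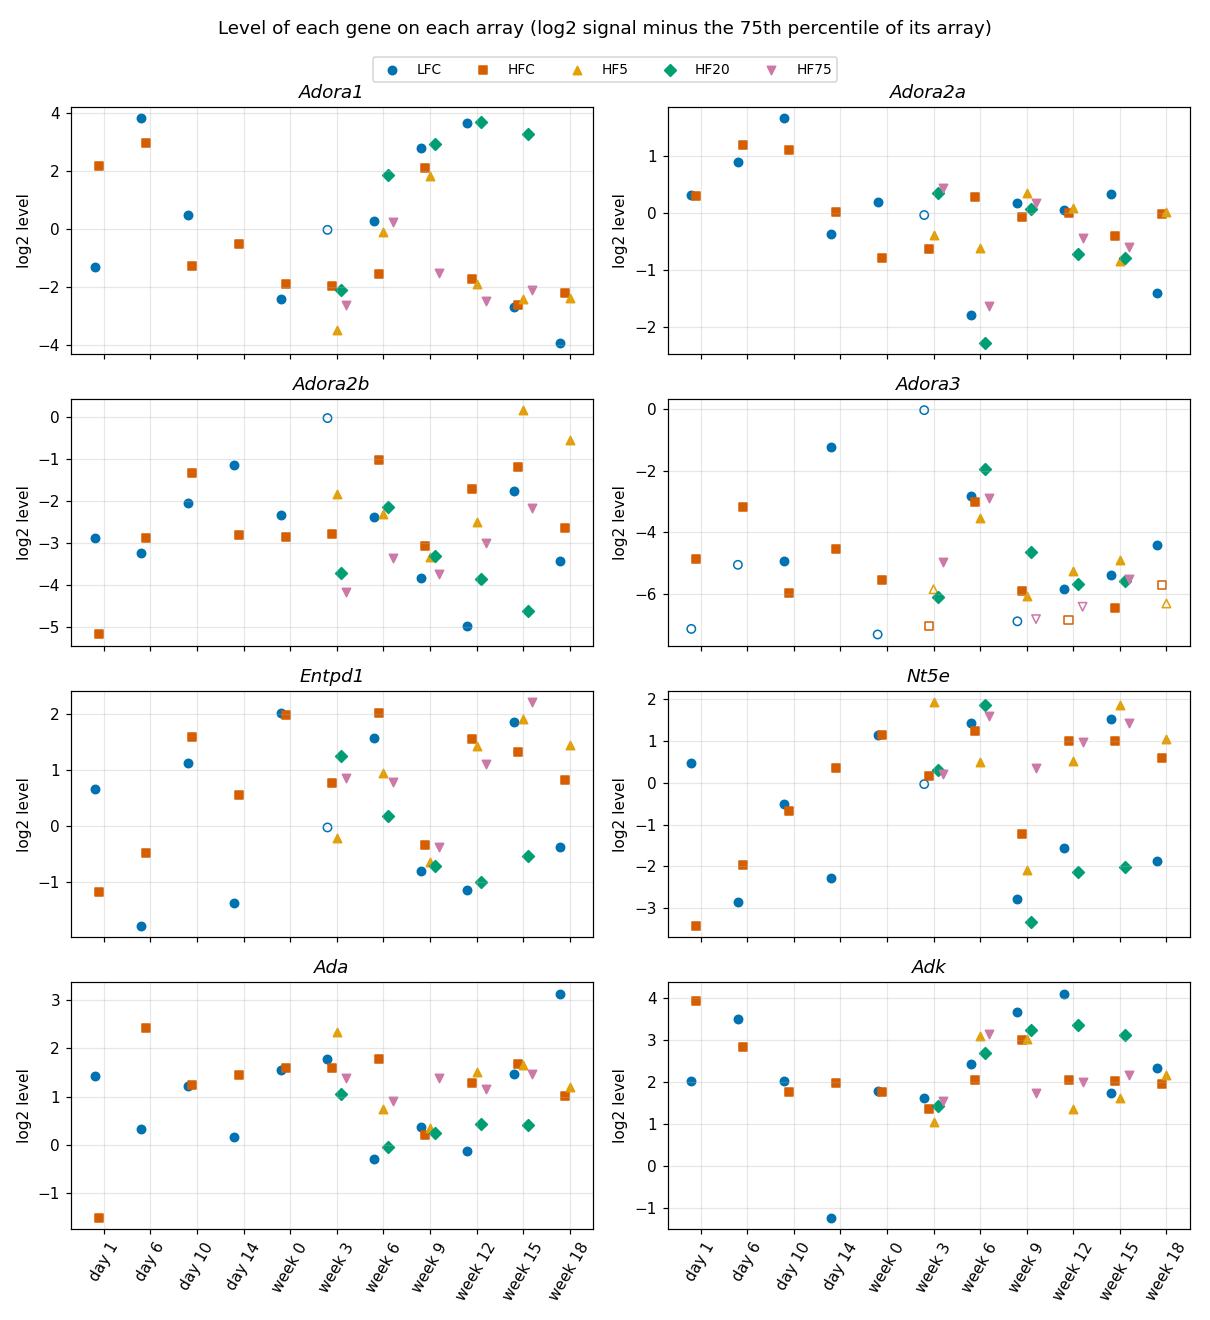
Level of each of the 8 genes on each labelled array (log2 signal minus the 75th percentile of its array) against time, with 1 point per array, colour and shape for diet and open points for values not well above background. Adora1 at week 12 lies at 3.67 on LFC and 3.70 on HF20 and at or below -1.75 on the other diets.

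Adipocyte markers moved with Adora1. The 10 arrays with the highest adipocyte list means, from 4.79 on HFC day 1 to 6.19 on LFC day 6, are all among the 11 arrays above the gap. The remaining array, HF20 week 6, had an adipocyte mean of 0.72 with Adora1 at 1.85. Among the other arrays the highest adipocyte mean was 3.65, on HFC day 14, where Adora1 was at -0.51. At week 12 the adipocyte mean was 5.00 on LFC, 2.61 on HFC, 1.76 on HF5, 5.59 on HF20 and 1.93 on HF75. In bulk RNA, fewer cells of a type and less RNA per cell cannot be told apart. The part of adipocyte RNA in the Adora1 level was not tested.

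The immediate-early markers moved with Adora1 as well, in the opposite direction. The 7 arrays with the lowest immediate-early means, from -1.08 on HF20 week 12 to 0.41 on HF20 week 9, are all above the Adora1 gap. The next lowest mean, 1.72, was on LFC week 18, where Adora1 was at -3.93. On the other 4 arrays above the gap the immediate-early mean was 2.39 on HF20 week 15, 3.07 on HFC week 9, 4.11 on HFC day 6 and 4.26 on HF20 week 6. The part of these markers in the Adora1 level was not tested either.

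**Figure D2:**
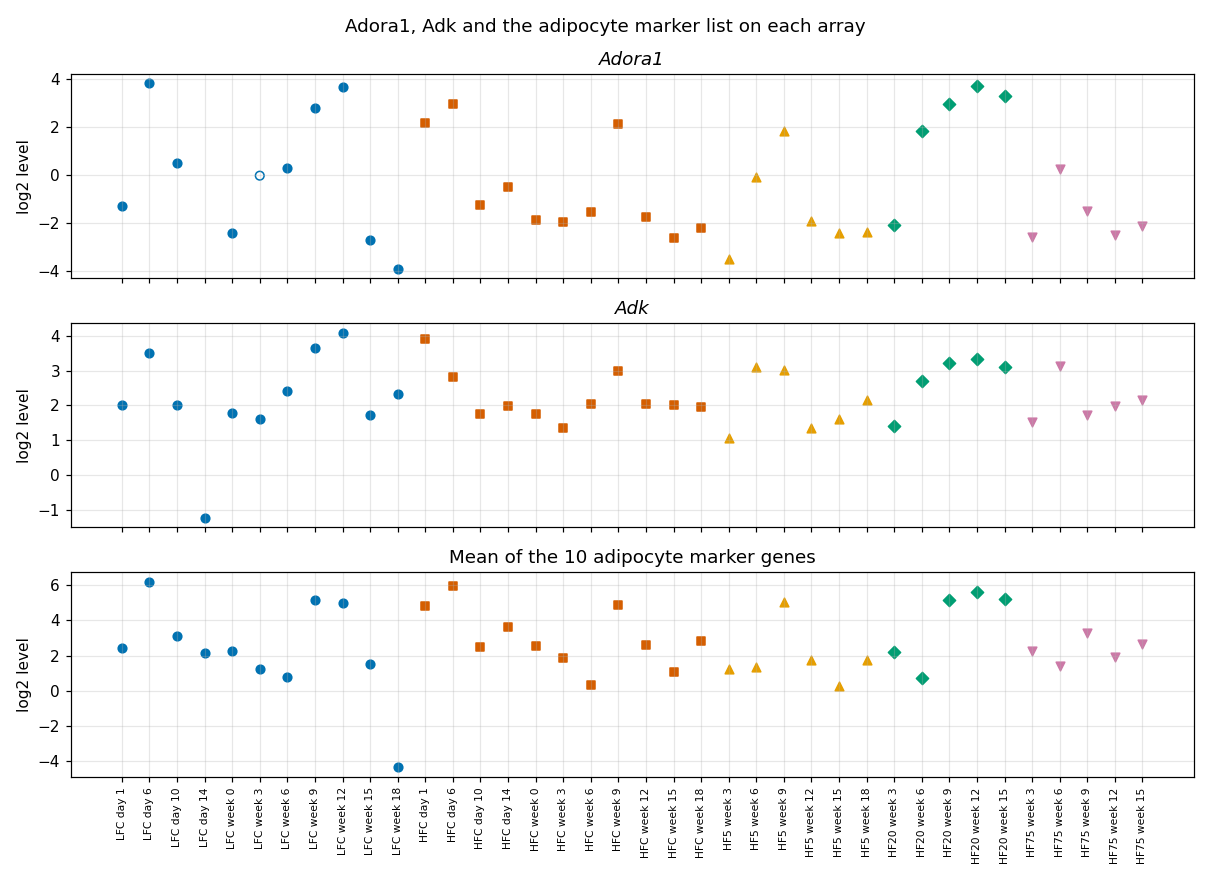
Levels of Adora1, Adk and the mean of the 10 adipocyte markers (log2 signal minus the 75th percentile of its array) on the 38 labelled arrays, ordered by diet and time, with 1 point per array and open points for values not well above background. HF20 week 6 has Adora1 at 1.85 with an adipocyte mean of 0.72, while HF20 weeks 9, 12 and 15 have adipocyte means of 5.15, 5.59 and 5.24.

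The genes whose levels were most like that of Adora1 over 37 arrays were Mlxipl, which encodes the carbohydrate response factor ChREBP (Pearson r = 0.960), Prss36 (r = 0.951), Echdc3 (r = 0.950), Aldh1l1, a folate enzyme (r = 0.944), and Pex11c (r = 0.938). These correlations describe arrays that share diets, times and cell mixture.

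Adora2a varied less between arrays. On the LFC arrays it ran from -1.79 at week 6 over a median of 0.18 to 1.66 at day 10, and on the HFC arrays from -0.78 at week 0 over a median of 0.01 to 1.19 at day 6. It was at 0.35, -2.27, 0.08, -0.71 and -0.78 on HF20 in weeks 3 to 15. On the HF5 arrays it ran from -0.85 to 0.36 and on the HF75 arrays from -1.63 to 0.45. All diets overlapped, and week 6 was the lowest array of LFC, HF20 and HF75 by this probe. By the second Adora2a probe it was not: week 6 was at -0.69 on LFC, -0.70 on HF20 and -1.60 on HF75, and the lowest arrays were day 1 at -2.48, week 3 at -1.87 and week 15 at -2.06. By Pearson r, closest to it over 38 arrays were Fscn1 (r = 0.747), Fabp5l2 (r = 0.744) and Gm6100 (r = 0.731), but by Spearman correlation 0 of these 3 were among the 3 closest.

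Adora2b was low where Adora1 was high on several arrays. On the LFC arrays it ran from -4.97 at week 12 over a median of -2.38 to -0.03 at week 3, the last being a bound. On the HFC arrays it ran from -5.18 at day 1 over a median of -2.80 to -1.02 at week 6. The lowest array of each of these diets, LFC week 12 and HFC day 1, is among those with Adora1 above its gap, and the diets overlapped.

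In weeks 3, 6, 9, 12 and 15 Adora2b was at -2.80, -1.02, -3.08, -1.72 and -1.20 on HFC. On HF20 it was at -3.72, -2.15, -3.31, -3.85 and -4.62, and on HF75 at -4.17, -3.37, -3.73, -2.99 and -2.17. Each HF20 and each HF75 array was below the HFC array of its week. On the HF5 arrays it ran from -3.34 at week 9 over a median of -2.08 to 0.16 at week 15. The last was the highest of the 38 levels, with that of LFC week 3 being a bound. The genes most like Adora2b were Vcan, which encodes the matrix proteoglycan versican (r = 0.910, 38 arrays), Pdpn, podoplanin (r = 0.831, 38 arrays), and Timp1, an inhibitor of matrix proteases (r = 0.828, 37 arrays).

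Adora3 was near background. Its brighter probe, the one listed under Tmigd3, was well above background on 26 of 38 arrays and its other probe on 20 of 37, so many of its levels are bounds. By the brighter probe, well above background on all HF20 arrays, it was at -6.09, -1.95, -4.65, -5.67 and -5.59 in weeks 3 to 15. Without LFC day 14 and week 3, the highest levels of this probe were -1.95 on HF20 week 6 and -2.81 on LFC week 6. Week 6 was also its highest time on HFC at -3.02, on HF5 at -3.53 and on HF75 at -2.87. The other probe does not show this: at week 6 it was at -5.94 on HFC and not well above background on the LFC, HF5, HF20 and HF75 arrays (bounds of -6.47, -6.90, -6.70 and -6.69). High levels of Adora3 at week 6 thus rest on the brighter probe alone. Most similar to that probe over 38 arrays were Sfta2 (r = 0.920), Casc1 (r = 0.908) and 1700013F07Rik (r = 0.904). Of the 38 values 12 are bounds, and without LFC day 14 and week 3 only 1 of these 3 genes was among the 3 closest.

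Entpd1 encodes CD39, which breaks ATP and ADP down to AMP. Its level ran from -1.79 at day 6 over a median of -0.03, a bound from the dim week 3 array, to 2.02 at week 0 on LFC, and from -1.19 at day 1 over a median of 0.81 to 2.02 at week 6 on HFC. In weeks 3 to 15 it was at 1.24, 0.17, -0.72, -1.01 and -0.54 on HF20. On HFC in the same weeks it was at 0.77, 2.02, -0.34, 1.55 and 1.31. HF20 was below HFC from week 6 on, and week 9 was the lowest of these weeks on HFC. The HF5 arrays ran from -0.65 at week 9 over a median of 1.17 to 1.90 at week 15 and the HF75 arrays from -0.38 at week 9 to 2.21 at week 15. Closest in level to Entpd1 were Fgl2 (r = 0.929, 38 arrays), Phlda1 (r = 0.920, 36 arrays) and Selp, which encodes P-selectin (r = 0.915, 38 arrays).

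Nt5e encodes CD73, which makes adenosine from AMP. Its level ran from -2.86 at day 6 over a median of -0.50 to 1.53 at week 15 on LFC, and from -3.43 at day 1 over a median of 0.36 to 1.25 at week 6 on HFC. On HF20 it was at 0.30, 1.86, -3.33, -2.14 and -2.01 in weeks 3 to 15, and on HFC at 0.17, 1.25, -1.23, 1.00 and 0.99. HF20 was therefore low from week 9 on. The HF5 array of week 9 was also low at -2.08, while the other 5 HF5 arrays ran from 0.49 to 1.93. A second Nt5e probe was well above background on only 17 of 38 arrays. The genes most like Nt5e were Ptgs2, which encodes the prostaglandin enzyme cyclooxygenase-2 (r = 0.912, 37 arrays), Hs3st1 (r = 0.896, 38 arrays) and Cxcl2, a neutrophil chemokine (r = 0.893, 37 arrays).

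Ada deaminates adenosine to inosine. It ran from -0.29 at week 6 over a median of 1.23 to 3.14 at week 18 on LFC, and from -1.51 at day 1 over a median of 1.45 to 2.43 at day 6 on HFC. On HF20 it was at 1.06, -0.04, 0.24, 0.44 and 0.41 in weeks 3 to 15, and on HFC at 1.60, 1.78, 0.21, 1.28 and 1.67. Only at week 9 was HF20 not below HFC. At week 12 it was at -0.13 on LFC, 1.51 on HF5 and 1.17 on HF75. The genes most like Ada were Hmgb2, a chromatin protein (r = 0.847, 38 arrays), Gm8681 (r = 0.839, 38 arrays) and Ripk3, a kinase of cell death (r = 0.837, 37 arrays).

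Adk phosphorylates adenosine back to AMP inside the cell. It was highest at 4.09 on LFC week 12, followed by 3.92 on HFC day 1, 3.65 on LFC week 9 and 3.50 on LFC day 6, and lowest at -1.24 on LFC day 14, with medians of 2.02 on LFC and 2.02 on HFC. Each of these high arrays also had Adora1 above its gap. On HF20 it was at 1.41, 2.69, 3.23, 3.34 and 3.10 in weeks 3 to 15, and on HFC at 1.34, 2.04, 2.99, 2.05 and 2.02. HF20 was above HFC in each week, by least at weeks 3 and 9. The genes most like Adk over 38 arrays were Rshl2a (r = 0.945), BC004004 (r = 0.941) and 0610009B22Rik (r = 0.939).

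The comparison of HFC with LFC asks what the high fat diet does without Kal-1. Because the low fat level at week 12 took part in the choice of genes, its values are a description. Entpd1 differed by 0.62 (SE 0.35, HFC higher in 8 of 11 pairs) and Nt5e by 0.50 (SE 0.49, higher in 6 of 11). Both counts include week 3, where the LFC level is a bound. Adora1 differed by -0.67 (SE 0.62, higher in 4 of the 9 pairs that could be ordered), and by -0.14 without week 12, where the pair differed by -5.41. Its other probes gave -1.52 and -0.33. The first of these was -0.67 without week 3, where it read 3.82 on the dim LFC array and -5.43 on HFC. The HFC minus LFC value of the brightest Adora1 probe thus rests largely on week 12, and that of this other probe on week 3.

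The remaining HFC minus LFC differences were 0.08 for Adora2a, 0.05 for Adora2b, -0.73 for Adora3, 0.16 for Ada and 0.06 for Adk. Of these only Adora3 kept its sign whichever single time label was left out. Without day 14 and week 3 the difference was -0.53 for Adora1, 0.55 for Adora2b and 0.46 for Entpd1, and also without week 18 it was -0.81, 0.52 and 0.37. For the other genes the value without day 14 and week 3 was 0.13 for Adora2a, 0.25 for Adora3, 0.30 for Nt5e, 0.07 for Ada and -0.25 for Adk. Also without week 18 these were -0.03, 0.45, 0.03, 0.34 and -0.23. The signs for Adora2a, Adora3 and Adk thus depend on the arrays that stood apart. The probes of a gene had opposite signs for Adora2a (0.08 and -0.18) and Nt5e (0.50 and -0.65). Without day 14 and week 3 they were 0.13 and -0.10 for Adora2a and 0.30 and 0.37 for Nt5e, so that the Nt5e probes then had the same sign. In limma 0 of 14 member probes and 0 of 29215 probes tested passed an adjusted p of 0.05 (0.0%), with 937 probes at an unadjusted p under 0.05. The member probes had a median difference of -0.06 and the 8 genes by their brightest probe 0.07, against -0.05 over all probes tested.

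Marker lists differed between HFC and LFC as well. The immediate-early list had a median difference of 1.40 (7 of 7 genes above 0), the fibroblast list 1.38 (6 of 6) the adipocyte list 0.81 (8 of 10) and the macrophage list 0.38 (6 of 8), and the endothelial list had 5 of 5 genes above 0. The lymph node list had a median difference of -0.47 (4 of 4 below 0) and the B cell list -0.44 (5 of 5 below 0). The immediate-early mean ran from -0.50 at week 12 to 5.38 at week 6 on LFC and from 0.16 at day 1 to 5.30 at week 6 on HFC. The fibroblast mean ran from -6.32 to 5.01 on LFC and from 2.93 to 4.86 on HFC. The lowest fibroblast, adipocyte and endothelial means were all on LFC week 18. Without day 14, week 3 and week 18 the median difference was 1.00 for the immediate-early list (7 of 7 above 0), 0.36 for the macrophage list (7 of 8), 0.31 for the endothelial list (4 of 5), 0.12 for the fibroblast list (4 of 6) and -0.28 for the adipocyte list (2 of 10). It was -1.03 for the lymph node list (4 of 4 below 0), -0.93 for the skeletal muscle list (5 of 5) and -0.60 for the B cell list (5 of 5). The fibroblast, endothelial and adipocyte differences thus came largely from these arrays. No gene of these lists passed the test, and their part in the values above was not tested.

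HF20 was compared with HFC at the 5 shared weeks, with no LFC array in the fit. No HF20 array shared a slide with the HFC array of its week. Adora1 was higher by 3.09 on the log2 scale (SE 0.91, 95% interval 0.97 to 5.22, higher in 4 of 5 pairs, limma adjusted p = 0.399). Its other probes gave 3.01 and 2.03. The exception was week 3, with -2.10 on HF20 and -1.98 on HFC, and week 9 differed by 0.83, with 2.94 and 2.12. The difference therefore came from weeks 6, 12 and 15, and it did not pass the test over all probes.

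The other members also differed in level between HF20 and HFC without passing the test. Adora2b differed by -1.57 (SE 0.48, lower in 5 of 5 pairs), Entpd1 by -1.23 (SE 0.44, lower in 4 of 5), Nt5e by -1.50 (SE 0.61, lower in 3 of 5) and Ada by -0.89 (SE 0.28, lower in 4 of 5). Adk differed by 0.67 (SE 0.23, higher in 5 of 5) and Adora3 by 1.07 (SE 0.37, higher in 5 of 5), with 0.85 by its other probe. The limma adjusted p was 0.399 for each of them by the brightest probe. Under 1 of 7 alternatives for processing and fit the Adora3 difference had the opposite sign, at -0.42. The HFC level of Adora3 was a bound in weeks 3 and 12. Adora2a differed by -0.51 (SE 0.47, lower in 3 of 5, limma adjusted p = 0.584), and by 0.01 without week 6, where the pair differed by -2.55. Its other probe gave 0.17, and the second Nt5e probe 0.42. In limma 0 of 14 member probes and 0 of 30831 probes tested passed (0.0%), with 3748 at an unadjusted p under 0.05. The 14 member probes, 3 of them for Adora1, had a median of 0.30, but the 8 genes by their brightest probe had a median of -0.70, with 3 above 0 and 5 below, against 0.08 over all probes tested.

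Marker lists moved with these values. The adipocyte list had a median difference of 1.69, with 9 of 10 genes above 0 and all 10 well above background on each HF20 and HFC array. Its mean on HF20 in weeks 3, 6, 9, 12 and 15 was 2.20, 0.72, 5.15, 5.59 and 5.24, and on HFC it was 1.89, 0.31, 4.88 and 2.61 in weeks 3 to 12 and below its week 3 value in week 15. The immediate-early list had a median difference of -2.66, with 7 of 7 genes below 0. Its mean was 4.96, 4.26, 0.41, -1.08 and 2.39 on HF20 and 4.63, 5.30, 3.07, 5.11 and 5.06 on HFC. The weeks with a small Adora1 difference, 3 and 9, are those in which the adipocyte means of both diets lay close together, but week 6 had a close pair of adipocyte means with Adora1 at 1.85 and -1.54. Of the other lists, the T cell list had a median difference of -1.68 (3 of 5 genes below 0), the lymph node list -1.29 (3 of 4), the B cell list -1.20 (4 of 5), the mast cell list -0.83 (4 of 5), the endothelial list -0.68 (5 of 5), the macrophage list -0.51 (7 of 8) and the fibroblast list -0.39 (5 of 6). The macrophage mean in weeks 3 to 15 was 0.24, 1.18, 1.01, 0.63 and 0.81 on HF20. Each was below the HFC mean of its week, given below. No gene of any of these lists passed the test, and their part in the result was not tested. In 4 of the 5 pairs, all but week 3, both arrays of the pair were scanned on the same day. These pairs were chosen after seeing the data, and leaving out week 3 takes away the only pair in which Adora1 was not higher on HF20. Over the 4 pairs the Adora1 difference was 3.90 (SE 0.81, limma adjusted p = 0.275, range 0.275 to 0.999 over the alternatives).

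HF75 was compared with HFC over the same weeks, and here too no pair shared a slide. Adora2b differed by -1.32 (SE 0.32, 95% interval -2.08 to -0.57, lower in 5 of 5 pairs, limma adjusted p = 0.136). With no filter on dim probes its adjusted p was 0.0358, but there 8707 of 40628 probes passed. Over the alternatives its adjusted p ran from 0.0358 to 1 and its difference from -1.49 to -0.73. Adora1 differed by -0.54 (SE 0.69, lower in 3 of 5), and by 0.23 without week 9, where the pair differed by -3.63. The HF75 and HFC arrays of week 9 were scanned on different days. Nt5e differed by 0.47 (SE 0.28, higher in 4 of 5) and Adora3 by 0.54 (SE 0.49). Without week 9 the Nt5e difference was 0.19, and without week 3, where the HFC level is a bound, that of Adora3 was 0.15. The differences of Adora2a, Entpd1, Ada and Adk ran from -0.24 to 0.02. Each had the opposite sign without 1 of the time labels, and Adk without any of 3. The second Adora2a probe was lower in 5 of 5 pairs, with a difference of -0.51 (SE 0.29, limma adjusted p = 0.495). Probes of a gene had opposite signs for Adora3 (0.54 and -0.24) and Entpd1 (-0.15 and 0.15). In limma 0 of 14 member probes passed, against 315 of 28910 probes tested (1.09%), of which 249 were higher and 66 lower, with 4217 at an unadjusted p under 0.05. The count of 315 was 35 without week 3, 66 without week 6, 1 with no time block and 0 in 1 fit of all 38 arrays. The member probes had a median of -0.19 and the 8 genes by their brightest probe -0.10, against -0.02 over all probes tested.

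The macrophage and fibroblast lists were lower on HF75. The macrophage list had a median difference of -1.29, with 7 of 8 genes below 0 and none passing. Its mean in weeks 3 to 15 was 0.22, 0.26, 0.26, 0.09 and 0.46 on HF75 and 0.67, 2.27, 1.40, 0.89 and 1.26 on HFC. The fibroblast list had a median of -0.87, with 5 of 6 genes below 0. Of its genes 1 of 6 passed, where 315 of all 28910 probes tested passed (1.09%). This was Dpt, which encodes the matrix protein dermatopontin and was named after its values were seen. The level of Dpt was 0.15, 0.95, 3.23, 1.53 and 0.38 on HF75 and 3.52, 2.87, 4.66, 3.52 and 3.84 on HFC, so that it fell by 2.43 (SE 0.35, lower in 5 of 5 pairs, limma adjusted p = 0.0272). The limma adjusted p of Dpt was 0.13 without week 3, 0.0788 without week 6, 0.0939 without week 12 and 0.0799 without week 15, in a range of 1.02e-05 to 0.715 over the alternatives. Only weeks 12 and 15 had both arrays scanned on the same day, and over these no probe passed. Of the other lists, the mast cell list had a median difference of -1.15 (5 of 5 genes below 0), the skeletal muscle list 0.67 (5 of 5 above 0) and the B cell list 0.34 (5 of 5 above 0), with none passing. The last 2 differences rest largely on week 9. There the skeletal muscle mean was 3.13 on HF75 and -4.62 on HFC, and the B cell mean 2.01 and -4.60. The skeletal muscle mean was lower on HF75 in weeks 6 and 12, and the B cell mean in weeks 3, 6 and 15. The mast cell mean in weeks 3 to 15 was -2.21, -3.24, -1.69, -1.50 and -2.36 on HF75 and ran from -2.05 at week 12 to -0.88 at week 9 on HFC, with HF75 below HFC in each week but week 12. The part of these lists in the Adora2b value was not tested.

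HF5 was compared with HFC at 6 weeks, and both arrays of each pair were scanned on the same day. The differences of the 8 genes ran from -0.22 for Entpd1 to 0.51 for Adora3. Adora1 differed by -0.08 (SE 0.34, 95% interval -0.87 to 0.70, higher in 2 of 6 pairs) and Adora2b by 0.34 (SE 0.45, higher in 3 of 6). Without week 18, where the pair differed by 2.07, the Adora2b difference was -0.01. Of the 8 genes only Entpd1 and Adora3 kept their sign whichever time label was left out. Over the alternatives for processing and fit Entpd1 reached 0.36 and Adora3 -0.41, so that neither kept its sign there. The second Entpd1 probe gave 0.11, and the other Adora1 probes gave 0.37 and -0.01. The second Adora2a probe was lower in 6 of 6 pairs, with a difference of -0.46 (SE 0.19, limma adjusted p = 0.967), and the first by -0.09. In limma 0 of the 13 member probes tested and 0 of 29200 probes passed (0.0%), with 1351 at an unadjusted p under 0.05. The member probes had a median of 0.04 and the 8 genes by their brightest probe 0.01, against -0.01 over all probes tested.

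Most marker lists had median differences below 0 on HF5, with no gene passing the test. The immediate-early list had a median difference of -0.72 (7 of 7 genes below 0) and the fibroblast list -0.59 (6 of 6). It was -0.38 for the endothelial (5 of 5), -0.46 for the macrophage (7 of 8) and -0.38 for the adipocyte list (9 of 10). The lymph node list had -0.62 (4 of 4) and the T cell list -0.50 (4 of 5). The B cell list had -0.425 (5 of 5) and the mast cell list -0.41 (4 of 5). The skeletal muscle list was the exception, at 0.12 with 4 of 5 genes above 0. The endothelial mean at week 3 was -1.81 on HF5 and 2.10 on HFC. In weeks 9, 12, 15 and 18 this mean was higher on HF5. In weeks 3 to 18 the immediate-early mean was 2.94, 4.78, -0.10, 5.02, 5.22 and 5.38 on HF5. On HFC it was 4.63, 5.30, 3.07, 5.11, 5.06 and 4.72, so that HF5 was the higher in weeks 15 and 18. The fibroblast mean in these weeks was 2.25, 4.38, 4.30, 4.39, 4.75 and 4.14 on HF5. On HFC it was 4.71, 4.82, 4.35, 4.86, 4.73 and 4.14. The widest pair was week 9 for the immediate-early and week 3 for the fibroblast mean. The part of these lists in the HF5 values was not tested. The Kal-1 comparisons share their HFC arrays, and differences between doses were not tested.

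Lists of other genes around adenosine were measured with the members. Of the cyclic AMP effectors, the G proteins, adenylyl cyclases and phosphodiesterases downstream of the receptors, 19 of 19 were tested and 1 passed, Adcy6, in HF75 minus HFC, where 315 of all 28910 probes tested passed (1.09%). Adcy6 encodes an adenylyl cyclase that makes cyclic AMP. Its level in weeks 3 to 15 was 7.12, 5.89, 6.21, 7.09 and 6.05 on HF75 and 3.78, 1.04, 2.43, 5.34 and 2.56 on HFC. Every HF75 array was thus above every HFC array of these weeks. At its other times HFC ran from 0.27 at day 10 to 5.59 at week 18. Adcy6 ran from 1.98 to 6.81 on HF5 and from 1.63 to 5.02 on HF20. On LFC it ran from 1.16 at week 18 to 7.91 on the dim week 3 array, the highest of all. The HF75 minus HFC difference was 3.44 (SE 0.41, higher in 5 of 5 pairs, limma adjusted p = 0.0151). Only weeks 12 and 15 had both arrays scanned on 1 day, and over these the difference was 2.62 (SE 0.46, limma adjusted p = 0.237). The limma adjusted p was 0.0856 without week 3, 0.0553 without week 6 and 0.0602 without week 15, in a range of 3.08e-08 to 0.522 over the alternatives. The 75th percentile signal of the arrays in weeks 3 to 15 was 520, 585, 442, 444 and 732 on HF75. On HFC it was 780, 810, 1623, 714 and 1114. Its part in the Adcy6 level was not tested.

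In HF75 minus HFC the median difference of the cyclic AMP effectors was 0.07, with 10 of 19 above 0. The other lists had 0 genes past the test in limma there. Their medians were -0.06 for the other ectonucleotidases (6 of 8 tested), -0.07 for the nucleoside transporters and ATP release channels (7 of 9 tested), -0.23 for the purine enzymes inside the cell (14 of 15 tested) and -0.39 for the P2 receptors of nucleotides (13 of 14 tested, 11 of them below 0).

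In the other comparisons 0 genes of these lists passed in limma, as for all probes tested. In HF20 minus HFC the medians were -0.71 for the other ectonucleotidases, -0.05 for the transporters and channels, -0.11 for the purine enzymes, -0.16 for the P2 receptors and -0.12 for the cyclic AMP effectors. In HF5 minus HFC they were -0.06, 0.08, 0.07, -0.18 and -0.06 in the same order. In HFC minus LFC they were 0.39, 0.42, -0.08, -0.19 and 0.30. The list with the lowest median was thus the ectonucleotidases in HF20 minus HFC and the P2 receptors in each of the others.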

How the data were processed

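The deposited array files of the 40 samples hold, per the file headers, spot intensity (processed signal) from Agilent Feature Extraction 10.5.1.1, background subtracted by the authors' software and not scaled between arrays; the labels name version 9.1. Gene symbols and probe sequences came from the authors' deposited fold change table, whose 40 fold change columns were not used. Control and outlier spots were left out, spots of a probe averaged, and log2 values shifted so that the 75th percentile of each array is 0. Dim values were set to the lowest level on that array called well above background. Diets were compared with limma 3.58.1 (R 4.3.3, trend on) within time labels, two-sided, over probes well above background on at least a share of 0.5 of the arrays of either diet, with Benjamini-Hochberg adjustment and a threshold of 0.05. The fit was tested on simulated data. Median signal over background per array ran from 1.53 to 55.4. Named genes are the members, the 5 (Adora1) or 3 genes with the highest Pearson r, and pathway list genes past the threshold; Dpt was named after its values were seen. Members and lists were chosen with earlier results of these data known. Alternatives were normexp correction, quantile normalization, other filters, 1 fit of all 38 arrays, no time block, leaving out time labels, and pairs with both arrays on the same slide or scanned on the same day. The same-slide alternative could not be run for HF20 and HF75, which have no such pairs.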

Additional observations from a re-analysis of the deposited data

Results flagged for a closer look

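In 1 of 24 groups of 5 or 6 arrays (8 genes in HF5, HF20 and HF75) an array lay far from the others. Nt5e on HF5 week 9 had a level of -2.08, the next HF5 array 0.49 and the highest 1.93. The gap made up 0.641 of the range of the 6 arrays, above the 95% critical value of Dixon's test. Chance gives such an array in about 1 in 20 groups. On HF5 week 9 the adipocyte list mean was 5.06 and Adora1 was at 1.84, the highest of the HF5 arrays for both. The immediate-early list mean there was -0.10, the lowest of the HF5 arrays, the next being 2.94, and the B cell list mean was -4.68, the lowest of the 38 arrays. Their part in the Nt5e level was not tested.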

How the results depend on the processing

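No result reversed past the threshold. HF5 minus HFC and HF20 minus HFC had 0 probes past the threshold in limma under every alternative run. HFC minus LFC had 0 except over pairs with both arrays on the same slide, with 2, both lower. HF75 minus HFC, with 315, had 462 with normexp correction, 331 with quantile normalization and 323 with no floor for dim values. It had 8707 with no filter on dim probes, 150 with probes well above background on every array, 1 with no time block and 0 in 1 fit of all 38 arrays. Over pairs with both arrays scanned on the same day, chosen after seeing the data and leaving 2 pairs, it had 0. Without 1 time label it ran from 35 (without week 3) to 328 (without week 9), with 66 without week 6, 117 without week 12 and 94 without week 15. The cause was not tested. Adcy6 kept its sign throughout, from 2.62 to 3.87, and Dpt from -2.73 to -2.15, but the adjusted p of Adcy6 was 0.522 and that of Dpt 0.715 in 1 fit of all 38 arrays. Of 32 member values 9 had 1 sign under every alternative, and of 510 values under alternatives 58 had the opposite sign and 1 passed the threshold. Adora1 in HF20 minus HFC ran from 2.03 to 3.90, and Adora3 from -0.42 to 1.12. Of the genes named as most alike, those still at the top without LFC day 14 and week 3 were 3 of 5 for Adora1, 2 of 3 for Adora2a, 3 of 3 for Entpd1 and 1 of 3 for each other member. By Spearman correlation they were 3 of 5 for Adora1, 0 of 3 for Adora2a, 2 of 3 for Adora2b and Adora3 and 1 of 3 for Entpd1, Nt5e, Ada and Adk. HFC minus LFC without day 14, week 3 and week 18 was chosen after seeing the data. No paired analysis was possible because the replicate numbers only follow the order of deposit, beyond the pairing by time label that each fit uses. Dim probes limit Adora3 and the second Nt5e probe.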

Other observations

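The 2 week 18 arrays whose labels disagree on the dose were left out of all comparisons. On the first, with 21710 outlier spots, the levels were 0.15 for Ada, -0.19 for Adk, -1.46 for Adora2b, -0.31 for Entpd1 and -0.73 for Nt5e, with no value for the main probes of Adora1, Adora2a and Adora3. On the second they were -0.95 for Adora1, -0.41 for Adora2a, -1.38 for Adora2b, 0.77 for Entpd1, 0.21 for Nt5e, 1.23 for Ada and 2.25 for Adk, and Adora3 was not well above background.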
